A study of Rattus norvegicus with 6 samples.

Results

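Nuclei that hold RNA of smooth muscle genes were taken from single-nucleus RNA sequencing (snRNA-seq) of rat ileum. Nuclei passed quality control with a minimum of 1200 UMIs (unique molecular identifiers, 1 per captured transcript) and 500 genes, and a maximum of 5% mitochondrial UMIs. The nuclei described here were chosen by their own UMIs. Of the 40970 passing nuclei, 2158 (5.27%) held UMIs of at least 3 different genes of Myh11, Actg2, Cnn1, Des, Tagln, Mylk, Acta2 and Lmod1, and these are called the rule nuclei below. The rats were wild type, male Sprague-Dawley animals aged 6 weeks on arrival, kept for 7 days before surgery and fasted after it. In the severe acute pancreatitis (SAP) group, 3% sodium taurocholate, a bile salt, was infused backwards into the pancreatic duct at 0.1 mL per 100 g of body weight under pentobarbital. The control (CON) group had a sham laparotomy without infusion. Ileum was taken at 24 h from 3 rats per group, and each rat gave 1 library. Before freezing, fat of the mesentery and visible Peyer's patches were removed, and nothing in the sources used here says that the muscle coat was separated from the mucosa.

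Smooth muscle of the ileum lies in the outer muscle coat, in the thin muscle layer under the mucosa and in the walls of vessels. Calcium entering through voltage-gated channels binds calmodulin, which switches on myosin light chain kinase (Mylk), and the phosphorylated myosin then pulls on thin actin filaments. The genes of this apparatus are driven by serum response factor and its partner myocardin, which bind CArG boxes in DNA. Gut smooth muscle can also make cytokines, matrix proteins and secreted signals for its neighbours when it is inflamed or injured.

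The 8 rule genes hold the core of that apparatus. Myh11 is the smooth muscle myosin heavy chain, Actg2 and Acta2 are the enteric and vascular types of smooth muscle actin, and Lmod1 nucleates actin filaments. Cnn1 (calponin) and Tagln (transgelin) bind actin, and Des (desmin) forms the intermediate filaments. Among the rule nuclei, Myh11 was detected in 88.2%, Mylk in 87.8%, Actg2 in 59.2% and Acta2 in 25.2%. Exactly 3 of the genes were held by 954 of the rule nuclei, while 86 held all 8. A further 4015 passing nuclei held 2 of the genes and lay just outside the rule.

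The name smooth muscle was checked against a second list of genes that the rule did not use, Myocd (myocardin), Synpo2, Pgm5, Synm, Tpm2, Myl9, Smtn and Kcnmb1. The score for a list was the mean log2 ratio of its genes to their level in the other passing nuclei, with 10 CPM (counts per 1000000 UMIs) added to each. This score was 0.293 in nuclei with 2 rule genes and 0.936 in those with 3, and it rose to 4.46 in nuclei with all 8. Tpm2, a smooth muscle tropomyosin, was at 34.1 CPM in nuclei with 3 rule genes and 2635 CPM in nuclei with 8, while Epcam, an epithelial adhesion gene, was at 800.2 and 441 CPM. Only 641 of the 2158 rule nuclei (29.7%) held at least 3 genes of the second list.

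The same rule also picked nuclei of other cell types. Of 3130 nuclei with T cell markers, 382 (12.2%) met it, at a median of 2702 UMIs, as did 179 of 1508 nuclei with B cell markers (11.9%). Of 34864 nuclei with epithelial markers, 1668 met it (4.78%, or 2.30% after thinning to 1200 UMIs), at a median of 1839 UMIs. Over all passing nuclei, at a median of 1761 UMIs, the share was 5.27%. After the same thinning, the shares of T, B and all passing nuclei were 3.29%, 3.58% and 2.98%. The share over all passing nuclei was therefore below that of nuclei with T or B cell markers and above that of nuclei with epithelial markers. None of these are markers of smooth muscle, so the share is not read as a share of muscle. Of the rule genes, Mylk was detected in 44.4% of the passing nuclei outside the rule, and the others in 0.786% to 9.70% of them. No doublet caller was run, and how far free RNA or doublets of nuclei fill the class was not tested. Only 123 rule nuclei held under 2 genes of every other marker list.

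Clustering split the rule nuclei into 16 sub-clusters, of which 5 had a second-list score of at least 2 that was also above their score for every other cell type. These 684 nuclei, 31.7% of the rule nuclei and 1.67% of all passing nuclei, are called smooth muscle-like. Of the 684, 379 (55.4%) held at least 3 genes of the second list, but 428 (62.6%) also held at least 3 epithelial markers and 122 (17.8%) at least 3 fibroblast markers. The limit of 2 was set after the scores were seen, and the lowest score inside it was 2.46. Sub-cluster 3 (158 nuclei, score 4.70) was led by Tpm2, Myl9, Tagln and Des together with the stress and inflammation genes Ifitm3, Mt2A, Sod2, Timp1 and Lcn2. Sub-cluster 5 (150 nuclei, score 4.38) was led by Epha7 and Tafa2 and also had Carmn, a noncoding RNA of smooth muscle, and Synpo2. Sub-cluster 6 (145 nuclei, score 2.67) had Sntg2, Kcnb2 and Cacna1c, the pore of the L-type calcium channel, with the enterocyte gene Si. Sub-cluster 7 (138 nuclei, score 2.46) had the signalling genes Rspo3 and Sema3e among its leading genes. Sub-cluster 11 (93 nuclei, score 4.10) was led by Wnt5b, Slit2, Prdm6 and Dgkb, with Ppargc1a and Postn.

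The other 11 sub-clusters, 1474 nuclei, stayed outside the class. Sub-cluster 12 (93 nuclei) had a second-list score of 2.81 but a slightly higher score of 2.90 for pericytes, the mural cells of small vessels. Its leading genes held Abcc9, but also Chrm2 and the genes Sntg2 and Cacna1c named above for sub-cluster 6. Myh11 was at 5269 CPM in sub-cluster 12, beside 2928 CPM in sub-cluster 6 and 2365 CPM in sub-cluster 7. Sub-cluster 2 had scores of 2.67 for smooth muscle and 3.00 for fibroblasts, and sub-cluster 13 scored 2.51 for B cells. Others were led by enterocyte, Paneth cell, enteroendocrine or tuft cell genes. The plot of scores shows these sub-clusters along or above the line of equal scores, or below 2.

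**Figure D1:**
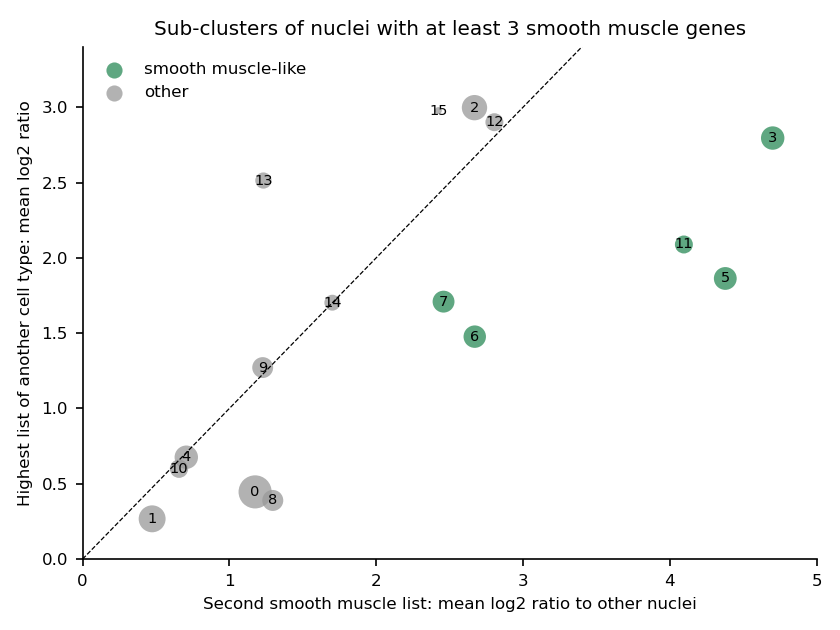
Each disc is 1 of 16 sub-clusters of the rule nuclei, its area growing with the number of nuclei. The x axis is the second smooth muscle list's mean log2 ratio to other passing nuclei and the y axis the highest such value of any other cell type's list. The 5 green discs lie below the dashed line of equal values and between 2.46 and 4.70 on the x axis.

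Within the smooth muscle-like nuclei, genes outside the rule were described by their level against the other passing nuclei, with no test, since clustering used these genes. Tpm2 was 3733, 1036 and 799 CPM in CON and 678, 579.98 and 767 CPM in SAP, against 11.3 CPM over the other passing nuclei. Myl9, the regulatory light chain of smooth muscle myosin, was 1412, 375 and 189 CPM in CON and 172, 225 and 233 CPM in SAP, against 5.48 CPM over the other passing nuclei. CON replicate 1 stood far above the other libraries for both. Carmn was 940.00, 1785 and 1236 CPM in CON and 721, 191 and 466 CPM in SAP, against 15.7 CPM over the other passing nuclei. Cacna1c was 979, 2383 and 2692 CPM in CON and 3097, 1439.7 and 2279 CPM in SAP, against 58.8 CPM over the other passing nuclei, and Flna, a filamin that crosslinks actin, was 1896, 770.2 and 865 CPM in CON and 979, 423 and 865 CPM in SAP, against 26.3 CPM over the other passing nuclei. Myocd was 105, 135 and 216 CPM in CON and 226, 95.5 and 163 CPM in SAP, against 3.67 CPM over the other passing nuclei, with overlapping groups. Among secreted products, Igfbp5, which binds insulin-like growth factors, was 254, 474 and 463 CPM in CON and 2172, 1324 and 2914 CPM in SAP, against 18.7 CPM over the other passing nuclei. Grem1 was 96.9, 88.5 and 70.4 CPM in CON and 398, 382 and 840.1 CPM in SAP, against 4.70 CPM over the other passing nuclei, and both genes were several times higher in each SAP library than in any CON library. Fewer cells of a type and less RNA per cell cannot be told apart in sums of nuclei, here or in the comparisons that follow.

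The question asked of the counts of nuclei was whether the ileum of SAP rats held another share of them. Of all passing nuclei, the rule nuclei made up 3.70%, 3.16% and 10.9% per CON library, against 2.29%, 1.37% and 6.87% per SAP library. The third replicate was the highest in each group, and the groups overlapped. The CON mean was 5.94% ± 4.35 and the SAP mean 3.51% ± 2.94 (SD, n = 3 each), a difference of -2.43 percentage points (exact permutation test, two-sided, p = 0.50). A design of 3 against 3 cannot give a p below 0.10. Without CON replicate 3 the difference turned to 0.0791 points. The smooth muscle-like nuclei made up 2.08% ± 1.33 of CON nuclei, against 1.08% ± 0.484 of SAP nuclei, a difference of -0.997 points (exact permutation test, two-sided, p = 0.40). Nuclei with at least 5 rule genes were 2.15% ± 1.01 of CON nuclei, against 1.05% ± 0.889 for SAP (exact permutation test, two-sided, p = 0.30). No share passed the test, and the plot of shares shows the libraries of both groups side by side under 5 definitions. Depth per nucleus differed widely, since the median of rule nuclei was 5239.5, 1718 and 2058 UMIs for the CON rats but 1752, 3659 and 2455 UMIs for the SAP rats. Libraries shared 0 to 4 barcodes per pair among the rule nuclei.

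**Figure D2:**
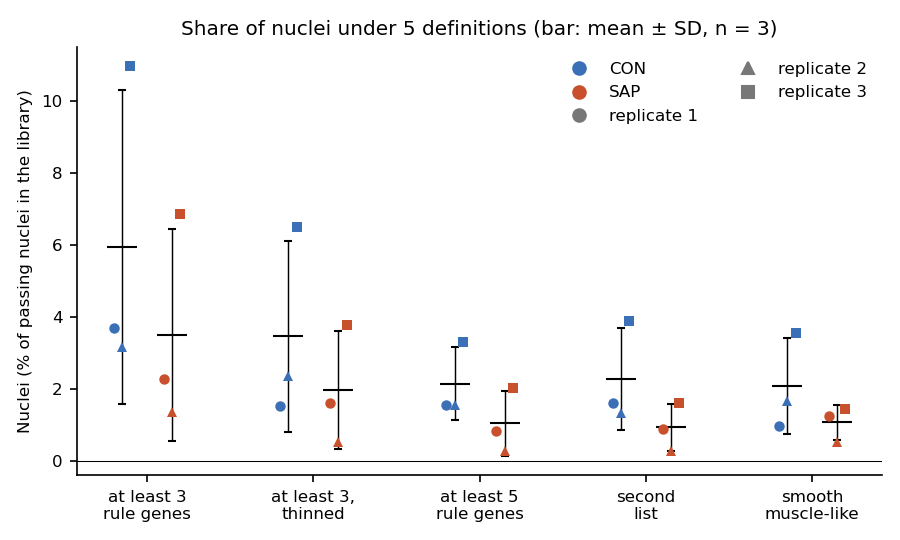
The y axis is the percent of a library's passing nuclei, with CON in blue and SAP in red and a marker shape per replicate number. Bars are the mean ± SD of 3 libraries under 5 definitions of the nuclei. Replicate 3 lay highest in both groups under all 5, and the ranges of CON and SAP overlapped in each.

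The question asked of expression was which genes differed between SAP and CON, with UMIs summed over the nuclei of each rat so that the rat was the replicate. A gene is called where edgeR's quasi-likelihood test gave a Benjamini-Hochberg adjusted p under 0.05 and the log2 fold change was at least 0.5 in size. Over all rule nuclei, 1 of 12345 genes tested was called (0.0081%), St8sia6, a sialyltransferase, which was 199, 210.2 and 248 CPM in CON and 12.3, 2.11 and 13.1 CPM in SAP. It fell in SAP, with a log2 fold change -4.42 with an SE of 0.42, edgeR adjusted p = 0.00937. In the other passing nuclei its log2 fold change was -5.31 (edgeR adjusted p = 0.391), and the difference between the sets did not pass the test. At an unadjusted p under 0.05 there were 498 genes higher (4.03%) and 423 lower (3.43%), and DESeq2 called 97 genes (0.786%). Most RNA in these sums was not from the smooth muscle-like nuclei, which gave 18.3% of it.

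A stricter form of the rule, at least 5 of the 8 genes, kept 726 nuclei, of which 56.2% were smooth muscle-like. The 3 CON libraries gave 145, 98 and 279 of them, with sums of 1423796, 208651 and 967613 UMIs. The SAP libraries gave only 27, 17 and 160, with sums of 71787, 100895 and 826823 UMIs. All smooth muscle-like nuclei, also those with fewer rule genes, held 485108, 192158 and 639257 UMIs in CON and 92987, 146556 and 355896 UMIs in SAP. So most RNA in the sums of CON replicate 1 and SAP replicate 3 was from nuclei outside that class. The exact share of RNA from smooth muscle-like nuclei in these sums was not measured. Of 9161 genes tested, 129 were called (1.41%), 103 of them higher in SAP (1.12%) and 26 lower (0.284%). All 129 had groups that did not overlap, as did 26.3% of all genes tested, 12.7% with SAP higher. Leaving out 1 library at a time gave 17 to 218 calls, with 17 without SAP replicate 1, 20 without CON replicate 2, 29 without SAP replicate 2 and 218 without SAP replicate 3. Each of the 129 kept its sign in all 6 of these fits. In all 6, 13 genes were called, namely Cxcl1, Grem1, Hsp90aa1, Ifitm1, Igfbp4, Il33, LOC120094738, Ppargc1a, Slpi, Socs3, St8sia6, Tceal9 and Thbs1. The main test was planned on all rule nuclei, with this stricter set as an alternative to it. The plan did not name the stricter set as the main one. It was not fitted again after thinning or at no more than 1% mitochondrial UMIs. The values in the rest of the account are CPM in these nuclei with at least 5 rule genes after scaling by edgeR's TMM factors, unless another set is named.

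The smooth muscle-like nuclei, a class formed after the data were seen, gave 171 calls among 6554 genes (2.61%), 112 higher (1.71%) and 59 lower (0.9%). Leaving out 1 library at a time gave from 49 calls without SAP replicate 1 to 571 without CON replicate 1, and thinning left 80. Sub-clusters 3 and 6 held most of this class in SAP, while sub-clusters 5, 7 and 11 held much of it in CON. Sub-cluster 3 had 29, 7 and 42 nuclei per CON library and 15, 16 and 49 per SAP library, whereas sub-cluster 5 had 18, 38 and 85 against 5, 0 and 4, and sub-cluster 11 had 13, 10 and 60 against 1, 0 and 9. What part this mix of sub-clusters had in the differences between the groups was not tested. Both sets of nuclei called 75 genes, 60 higher and 15 lower, which is 58.1% of the calls with at least 5 rule genes and 43.9% of the calls in the smooth muscle-like nuclei. The sets share nuclei, so the overlap is not independent support. In the nuclei outside the rule, 0 of 18770 genes were called by edgeR, with 772 higher (4.11%) and 897 lower (4.78%) at an unadjusted p under 0.05. In the rule nuclei outside the smooth muscle-like class 0 of 11716 were called, with 228 (1.95%) and 274 (2.34%). Of the 129 genes called with at least 5 rule genes, 113 had the same sign in the nuclei outside the rule, where 40 reached an unadjusted p under 0.05. Both sets come from the same libraries.

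RNA of other cell types moved with the groups in the nuclei with at least 5 rule genes. The 8 pericyte markers, all detected and led by Abcc9, summed to 162, 441 and 413 CPM in CON and 1629.8, 1863 and 717 CPM in SAP. The 8 fibroblast markers, led by Col3a1, summed to 658, 637 and 722 CPM in CON and 1170.1, 1427 and 1018 CPM in SAP. Neutrophil markers, led by S100a9 with all 8 detected, reached 70.2, 9.59 and 14.5 CPM in CON and 2563, 238 and 196 CPM in SAP, so that SAP replicate 1 stood apart. Epithelial markers, led by Krt8, were 2974, 2463 and 2777 CPM in CON and 2006, 2428 and 3746 CPM in SAP and overlapped between groups. The second smooth muscle list summed to 3009.6, 3638 and 2450.4 CPM in CON and 2438, 1744 and 1116 CPM in SAP. Every SAP library was lower than any CON library, but SAP replicate 1 was only just below CON replicate 3. Over all rule nuclei the groups overlapped, at 1181, 2118 and 1167 CPM in CON and 1450, 563 and 636 CPM in SAP. The median mitochondrial share of the nuclei with at least 5 rule genes was 0.687%, 0.209% and 0.280% by CON library, and 2.07%, 1.71% and 0.731% by SAP library. The mitochondrial genes ND1, ND4, ND4L and ND5 were among the calls higher in SAP. Over all rule nuclei, keeping those with at most 1% mitochondrial UMIs moved the log2 fold change of Ifitm1 from 2.11 to 0.50, of Sod2 from 3.46 to 1.54, of Grem1 from 2.53 to 1.5 and of Igfbp4 from 3.03 to 2.1, while St8sia6 went from -4.42 to -4.18, with 7 nuclei left in SAP replicate 1. What part these had in the results below, in the nuclei with at least 5 rule genes, was not tested.

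The contractile genes themselves showed no call in the nuclei with at least 5 rule genes. All 8 rule genes were lower in SAP in these nuclei, with log2 fold changes from -0.95 (Acta2) to -0.12 (Lmod1), given as a description since the rule chose nuclei by them. Myh11 was 3471, 4870.1 and 3566 CPM in the CON libraries and 5500.1, 1866 and 2016 CPM in the SAP libraries. The highest value was in SAP replicate 1, and the groups overlapped. Of 16 filament and regulatory genes outside the rule, 0 were called, 8 had a positive and 8 a negative log2 fold change, and the median was 0.092. Of the 8 negative ones, Tpm1 was 2076, 3359 and 2103 CPM in CON and 1529.5, 1021 and 861 CPM in SAP (log2 fold change -1.15 with an SE of 0.45, edgeR adjusted p = 0.208). Smtn (smoothelin), a marker of contractile smooth muscle, was 320.2, 375 and 269 CPM in CON and 278, 41.7 and 92.4 CPM in SAP (log2 fold change -1.43 with an SE of 0.44, edgeR adjusted p = 0.12). The 24 tested genes of dense bodies, intermediate filaments and attachment had a median log2 fold change of -0.32, beside -0.037 over all genes tested, and 0 calls. Dmd (dystrophin), which anchors actin to the membrane, was 565, 1727 and 1260.01 CPM in CON and 479, 281 and 421 CPM in SAP (log2 fold change -1.58 with an SE of 0.44, edgeR adjusted p = 0.0951). In the smooth muscle-like nuclei 2 of its 24 genes were called lower, Dmd and Synpo2, beside 0.9% of all genes tested. Dmd was at -2.21 with an edgeR adjusted p of 0.0275. Synpo2 is a gene of the second list that chose these nuclei, so nothing is read from its call. For the same reason nothing is read from this list's count of calls or its median of -0.61 in that class. The 19 tested regulators of the myocardin and serum response factor pathway had a median of 0.0036 and 0 calls.

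Genes that start and end a contraction were likewise mostly without calls. Of 28 tested genes of the list of calcium entry, stores and ion channels, 1 was called, beside 1.41% of all genes tested, while 17 had a negative log2 fold change and the median was -0.18. This was Kcnj8, the pore of the ATP-sensitive potassium channel that hyperpolarises smooth muscle. Kcnj8 was 23.3, 9.38 and 52.2 CPM in the CON libraries and 695, 709 and 181 CPM in the SAP libraries. Each SAP library was above each CON library (log2 fold change 3.95 with an SE of 0.61, edgeR adjusted p = 0.022), and the call held in 3 of the 6 fits without 1 library. Its partner subunit Abcc9 was 25.9, 155 and 150.03 CPM in CON and 556, 615 and 249 CPM in SAP (log2 fold change 2.11 with an SE of 0.64, edgeR adjusted p = 0.141). Both genes are also pericyte markers, and the pericyte list they belong to moved with the groups as given above. Kcne4, an accessory subunit of potassium channels that is not on that list, rose from 2.50, 9.38 and 8.70 CPM to 92.7, 334 and 57.9 CPM (log2 fold change 4.56 with an SE of 0.76, edgeR adjusted p = 0.022). Among 16 excitatory receptor and coupling genes tested there were 0 calls. Chrm3, the muscarinic receptor through which acetylcholine contracts gut muscle, was 545, 582 and 609 CPM in CON and 355, 219 and 336 CPM in SAP (log2 fold change -0.92 with an SE of 0.31, edgeR adjusted p = 0.151), and Ednra, an endothelin receptor, was 8.34, 23.5 and 31.5 CPM in CON and 108, 93.8 and 57.9 CPM in SAP (log2 fold change 1.92 with an SE of 0.53, edgeR adjusted p = 0.0951). In the smooth muscle-like nuclei Ednra was called higher, at 3.22 with an edgeR adjusted p of 0.00817, the 1 call among 13 genes of this list tested there, beside 2.61% of all genes. The 18 genes of myosin phosphorylation and the 19 of relaxation by cyclic nucleotides had medians of 0.11 and -0.34 and 0 calls.

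Of 18 tested genes of the JAK-STAT3 and acute phase list, through which cytokines of the interleukin-6 family signal, 4 were called, all higher in SAP, beside 1.12% of all genes tested. All 18 had a positive log2 fold change, with a median of 1.01. Over all genes tested 4383 of 9161 were positive. Socs3, the feedback inhibitor that STAT3 induces, was 14.2, 14.1 and 32.6 CPM in the CON libraries and 216, 261 and 123 CPM in the SAP libraries. The lowest SAP library was well above the highest CON library, with a log2 fold change 3.09 with an SE of 0.44, edgeR adjusted p = 0.00598. Il6st, the gp130 receptor chain shared by cytokines of this family, was 130.1, 70.4 and 208 CPM in CON and 757, 552 and 324 CPM in SAP (log2 fold change 1.89 with an SE of 0.40, edgeR adjusted p = 0.0394). Cebpb, a transcription factor of acute phase genes, was 14.2, 32.8 and 72.8 CPM in the CON libraries and 309, 427 and 307 CPM in the SAP libraries. It rose in SAP (log2 fold change 3.08 with an SE of 0.47, edgeR adjusted p = 0.00923), as did the repressor Bcl6 (log2 fold change 2.49 with an SE of 0.53, edgeR adjusted p = 0.0392). Stat3 itself was 321, 338 and 388 CPM in CON and 711, 688 and 562 CPM in SAP (log2 fold change 0.89 with an SE of 0.30, edgeR adjusted p = 0.15). Short of a call in these nuclei were the transcription factor Cebpd, at 3.54 with an edgeR adjusted p of 0.0573, and Timp1, an inhibitor of matrix proteases, at 3.5 with an edgeR adjusted p of 0.0646. Both were called higher in the smooth muscle-like nuclei, Cebpd at 4.13 with an edgeR adjusted p of 0.0125 and Timp1 at 3.29 with an edgeR adjusted p of 0.0367. The list's median in the other passing nuclei was 0.82.

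Of 18 tested genes of the inflammatory response and NF-kB list, 4 were called, all higher, beside 1.12% of all genes tested, and 4 had a negative log2 fold change. The list's median was 0.74 in these nuclei and 0.57 in the other passing nuclei. Il33, an alarmin released from the nucleus of injured cells, was 30.0, 18.8 and 40.2 CPM in the CON libraries and 216, 552 and 147 CPM in the SAP libraries. All 3 SAP libraries were above all CON libraries, and SAP replicate 2 was the highest (log2 fold change 3.16 with an SE of 0.48, edgeR adjusted p = 0.00841). Cxcl1, which draws in neutrophils, was 1.67, 0 and 2.17 CPM in the CON libraries and 92.7, 115 and 48.0 CPM in the SAP libraries. These are few molecules, 2, 0 and 2 UMIs against 6, 11 and 39 UMIs (log2 fold change 5.25 with an SE of 0.66, edgeR adjusted p = 0.00178). Il1r1, the receptor of interleukin-1, was 21.7, 18.8 and 55.4 CPM in CON and 108, 229 and 121 CPM in SAP (log2 fold change 2.1 with an SE of 0.44, edgeR adjusted p = 0.0392), and Tnfrsf1a, a receptor of tumor necrosis factor, was 43.4, 32.8 and 41.3 CPM in CON and 139, 188 and 93.6 CPM in SAP (log2 fold change 1.66 with an SE of 0.36, edgeR adjusted p = 0.0419). Slpi, a secreted inhibitor of neutrophil proteases, was 4.17, 4.69 and 8.70 CPM in CON and 417, 125 and 115 CPM in SAP (log2 fold change 4.92 with an SE of 0.59, edgeR adjusted p = 0.00146). Its log2 fold change in the other passing nuclei was 5.63. Sod2, the mitochondrial superoxide dismutase, was 44.2, 32.8 and 93.5 CPM in CON and 1174, 1897 and 259 CPM in SAP (log2 fold change 4.17 with an SE of 0.69, edgeR adjusted p = 0.0242). Ifitm1 and Ifitm3, interferon-inducible membrane proteins, were called higher at 2.61 and 3.76, although 0 of the 8 tested genes of the interferon list were called and its median was 0.31. Of 19 MHC genes tested, 0 were called while 11 were higher at an unadjusted p under 0.05, as were 10.2% of all genes tested, and the list's median was 0.93 in these nuclei and 0.84 in the other passing nuclei. In the smooth muscle-like nuclei 1 of 16 MHC genes tested was called, RT1-Da, and it was higher, as were 1.71% of all genes tested there.

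Of 28 tested genes of the TGF-beta, BMP and growth factor list, 5 were called, all higher, beside 1.12% of all genes tested, while 9 had a negative log2 fold change. The list's median was 0.20 in these nuclei and 0.41 in the other passing nuclei. Grem1, which traps bone morphogenetic proteins, was 50.0, 89.1 and 59.8 CPM in the CON libraries and 386, 489.9 and 352 CPM in the SAP libraries. Its CON and SAP libraries were well apart (log2 fold change 2.69 with an SE of 0.31, edgeR adjusted p = 0.00146). Grem1 is also among the 10 leading genes of sub-cluster 3. That sub-cluster made up 8.48%, 3.54% and 4.56% of the rule nuclei per CON library and 20.5%, 19.5% and 9.04% per SAP library. Chrdl2, another antagonist of bone morphogenetic proteins, was 1.67, 0 and 17.4 CPM in CON and 216, 313 and 89.9 CPM in SAP (log2 fold change 4.52 with an SE of 0.77, edgeR adjusted p = 0.0247). Igfbp4, outside that list, which binds insulin-like growth factors and limits their action, was 65.0, 65.7 and 142 CPM in the CON libraries and 1251, 1021 and 631 CPM in the SAP libraries. It rose in every SAP library (log2 fold change 3.35 with an SE of 0.42, edgeR adjusted p = 0.00178), and so did Igfbp5 at 127, 357 and 349 CPM in CON and 1916, 1845 and 1375 CPM in SAP (log2 fold change 2.64 with an SE of 0.44, edgeR adjusted p = 0.0163). Thbs1 (thrombospondin 1), from the matrix list, a glycoprotein that activates latent TGF-beta, was 66.7, 65.7 and 102 CPM in the CON libraries and 509.8, 750.5 and 423 CPM in the SAP libraries. The groups did not overlap (log2 fold change 2.79 with an SE of 0.33, edgeR adjusted p = 0.00146).

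Of 40 matrix genes tested, 4 were called, all higher, beside the same 1.12%, while 12 had a negative log2 fold change, and the median was 0.47. Tnc (tenascin C), a matrix protein of wounds, was 113, 159.5 and 244 CPM in the CON libraries and 726, 949 and 582 CPM in the SAP libraries. It rose in SAP (log2 fold change 2.11 with an SE of 0.36, edgeR adjusted p = 0.0193). Fn1 (fibronectin) was 190.1, 79.8 and 209 CPM in CON and 1097, 657 and 393 CPM in SAP (log2 fold change 2.06 with an SE of 0.42, edgeR adjusted p = 0.0378), and Col3a1, a fibrillar collagen, was 146, 225 and 211 CPM in CON and 587, 740.1 and 367 CPM in SAP (log2 fold change 1.52 with an SE of 0.34, edgeR adjusted p = 0.0448). Col3a1 is also one of the fibroblast markers that moved with the groups. Eln (elastin) was 138, 244 and 167 CPM in CON and 77.2, 73.0 and 77.6 CPM in SAP (log2 fold change -1.22 with an SE of 0.33, edgeR adjusted p = 0.0946), and it was called lower in the smooth muscle-like nuclei at -1.93 with an edgeR adjusted p of 0.00754. The plot of 15 genes by library shows the rises and falls named here.

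**Figure D3:**
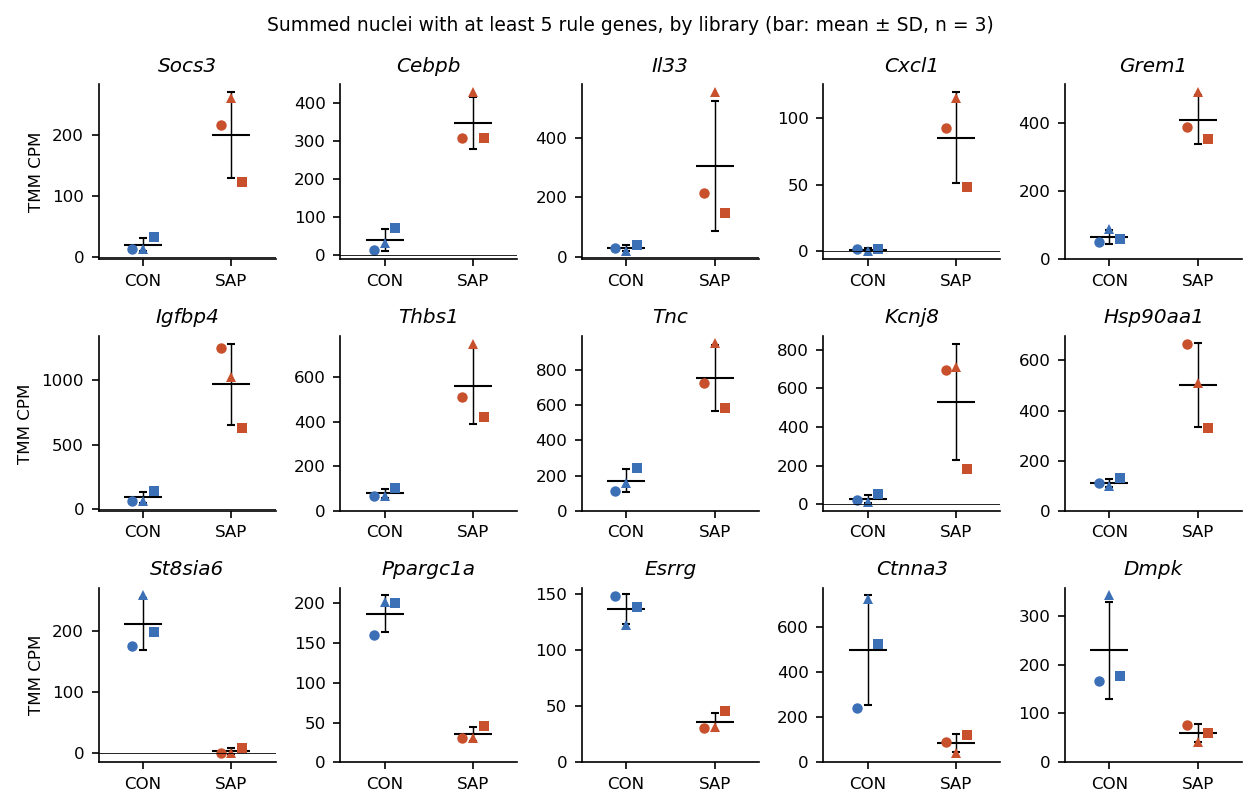
Each panel shows 1 of 15 genes as TMM-scaled CPM in the nuclei with at least 5 rule genes of each library, CON in blue and SAP in red. Socs3, Il33, Grem1, Igfbp4 and Thbs1 lie higher in all 3 SAP libraries than in all 3 CON libraries, and St8sia6, Ppargc1a, Esrrg, Ctnna3 and Dmpk lie lower.

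Immediate early genes, which respond within minutes to stimuli and to handling of tissue, had 3 of 12 called higher, beside 1.12% of all genes tested, namely Egr1 (log2 fold change 2.71 with an SE of 0.47, edgeR adjusted p = 0.0214), Junb (log2 fold change 1.87 with an SE of 0.39, edgeR adjusted p = 0.0378) and Zfp36, which speeds decay of cytokine mRNA (log2 fold change 1.88 with an SE of 0.40, edgeR adjusted p = 0.039). The list's median was 1.08 and 1.04 in the other passing nuclei. Hsp90aa1, a stress-induced chaperone, was 110.1, 98.5 and 130.5 CPM in the CON libraries and 664, 511 and 330.2 CPM in the SAP libraries. Each SAP value was higher (log2 fold change 2.08 with an SE of 0.32, edgeR adjusted p = 0.00841), and it was the 1 call among 20 genes of the unfolded protein and heat shock list, beside 1.12% of all genes tested. In the smooth muscle-like nuclei that list had 3 calls among 17, all higher, beside 1.71%. Glul (glutamine synthetase), which glucocorticoids induce in muscle, was 51.7, 51.6 and 57.6 CPM in CON and 263, 615 and 166 CPM in SAP (log2 fold change 2.61 with an SE of 0.43, edgeR adjusted p = 0.014), 1 call of 12 in its list beside the same 1.12%. Epas1, the hypoxia-inducible factor HIF-2 alpha, was 38.4, 32.8 and 80.4 CPM in CON and 201, 584 and 201 CPM in SAP (log2 fold change 2.57 with an SE of 0.46, edgeR adjusted p = 0.022), and Ldha, which makes lactate, was called at 1.35. The calls higher in SAP also held the tubulins Tuba1a, Tuba1b, Tuba1c and Tubb5, with log2 fold changes of 2.25, 1.90, 1.91 and 1.33, and the translation genes Eif1, Eif5a, Eif4g2, Eef1b2, Pabpc1 and Rps3a, chosen here after their values were seen.

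Genes of oxidative and fatty acid metabolism were called in both directions. Ppargc1a (PGC-1 alpha), which drives the making of mitochondria, was 160.1, 202 and 200.04 CPM in the CON libraries and 30.9, 31.3 and 45.6 CPM in the SAP libraries. All SAP libraries were far below all CON libraries (log2 fold change -2.19 with an SE of 0.34, edgeR adjusted p = 0.00841). Esrrg, a nuclear receptor that works with it, was 148, 122 and 138 CPM in the CON libraries and 30.9, 31.3 and 45.6 CPM in the SAP libraries. It fell too (log2 fold change -1.75 with an SE of 0.34, edgeR adjusted p = 0.0273), and its log2 fold change in the other passing nuclei was -1.74. In SAP replicates 1 and 2, which had the smallest sums of UMIs, the values of Ppargc1a and Esrrg are only a few UMIs each. Angptl4, an inhibitor of lipoprotein lipase, was called higher at 3.28. The list of 18 tested genes had 2 calls up and 2 down, beside 1.12% and 0.284% of all genes tested, with a median of 0.41. ND1 and ND4, subunits of complex I coded by the mitochondrial genome, were higher at 2.15 and 1.81, beside the mitochondrial shares given above.

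The other falls described here were chosen from the 26 calls after their values were seen. St8sia6 was 175, 258 and 199 CPM in CON and 0, 0 and 8.62 CPM in SAP in these nuclei, from 210, 55 and 183 UMIs against 0, 0 and 7 UMIs (log2 fold change -4.88 with an SE of 0.50, edgeR adjusted p = 0.000944). Ctnna3 (alpha-T-catenin), which links cadherins to actin in muscle, was 243, 727 and 527 CPM in the CON libraries and 92.7, 41.7 and 123 CPM in the SAP libraries. The highest SAP library was below the lowest CON library (log2 fold change -2.36 with an SE of 0.45, edgeR adjusted p = 0.0247). Myom1, a myomesin that crosslinks myosin, was 103, 277 and 124 CPM in CON and 30.9, 20.8 and 28.3 CPM in SAP (log2 fold change -2.52 with an SE of 0.48, edgeR adjusted p = 0.0251). Its values in SAP replicates 1 and 2 are likewise only a few UMIs each. Dmpk, the kinase of myotonic dystrophy, was 167, 343 and 177 CPM in CON and 77.2, 41.7 and 60.4 CPM in SAP (log2 fold change -1.90 with an SE of 0.39, edgeR adjusted p = 0.0354). Asb2, part of a ubiquitin ligase that degrades filamins, was 264, 178 and 195 CPM in CON and 92.7, 31.3 and 48.0 CPM in SAP (log2 fold change -2.06 with an SE of 0.37, edgeR adjusted p = 0.022). Wnt5b, Dgkb and Cacna1e fell by 1.48, 2.72 and 1.73 on the log2 scale. These 3 genes, Ppargc1a and Ctnna3 are all among the 10 leading genes of sub-cluster 11, of which SAP replicates 1 and 2 held 1 and 0 nuclei. Myo5b and Muc3l1, genes of epithelial apical transport and of the mucin coat, were among the falls, at -1.42 and -2.37.

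**Figure D4:**
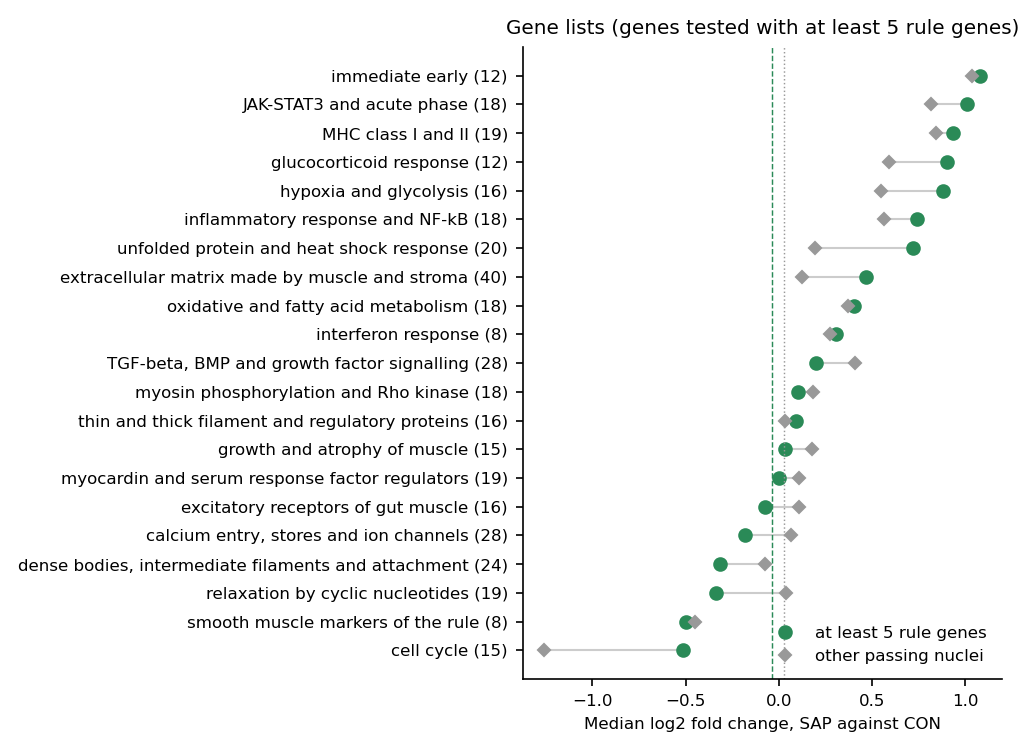
Each row is a gene list with its number of genes tested, and the x axis is the median log2 fold change of SAP against CON. Green discs are nuclei with at least 5 rule genes and grey diamonds the other passing nuclei, with the medians over all genes tested as dashed and dotted lines. Immediate early genes lie at 1.08 and cell cycle genes at -0.51 in the green set.

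Whether these changes differed from those in the rest of the ileum depended on the set of nuclei. Over all rule nuclei, the test of the difference in the SAP effect against the other passing nuclei called 0 of 17095 genes by edgeR, with 360 higher (2.11%) and 832 lower (4.87%) at an unadjusted p under 0.05. With at least 5 rule genes, against passing nuclei with under 5, 8 of 16086 genes were called (0.0497%), 4 higher (0.0249%) and 4 lower (0.0249%). The smooth muscle-like nuclei, against all other passing nuclei, gave 417 of 15664 (2.66%), which held 60 of the 129 genes called with at least 5 rule genes. For the nuclei with at least 5 rule genes there were 0 such calls without CON replicate 1, CON replicate 2 or SAP replicate 2, and without SAP replicate 3 there were 801. Socs3 had a log2 fold change of 0.15 ± 0.38 (SE) in the nuclei with under 5 rule genes, and the difference was 2.60 with an SE of 0.46 and an edgeR adjusted p of 0.0172. Il33 was at 0.46 ± 0.36 (SE) in those nuclei, a difference of 2.45 with an SE of 0.50 and an edgeR adjusted p of 0.0467. Ifitm1, at 0.099 ± 0.77, and Tmem176a, a membrane protein of the cation channel family, at 0.35 ± 0.55, differed by 2.28 and 1.92. The effects on these 4 genes were higher in the nuclei rich in rule genes.

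The effects on the other 4 genes were lower in the nuclei with at least 5 rule genes. Ppargc1a was at -0.41 ± 0.30 (SE) in the nuclei with under 5, a difference of -2.12 with an SE of 0.43 and an edgeR adjusted p of 0.0467. Cacna1e, the pore of R-type calcium channels and likewise not on the channel list, was at 0.041 ± 0.34, a difference of -1.98 with an SE of 0.39 and an edgeR adjusted p of 0.0467. Fbxo32 (atrogin-1), a ubiquitin ligase of muscle wasting, was 71.7, 145 and 114 CPM in CON and 108, 62.5 and 37.0 CPM in SAP in the nuclei with at least 5 rule genes, where it was not called (log2 fold change -0.98 with an SE of 0.44, edgeR adjusted p = 0.279). It was called lower in the smooth muscle-like nuclei, at -1.66 with an edgeR adjusted p of 0.0259. In the nuclei with under 5 its log2 fold change was 1.18 ± 0.47 (SE), so the difference of -2.15 comes from opposite signs. LOC108350538 was 26.7, 61.0 and 55.4 CPM in CON and 0, 0 and 4.93 CPM in SAP and differed by -4.07. Grem1 and Thbs1, called in every leave-one-out fit, also had positive log2 fold changes of 1.69 and 1.18 in the nuclei outside the rule, and the difference of each from the nuclei with under 5 rule genes did not pass the test (edgeR adjusted p = 0.846 and 0.216).

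**Figure D5:**
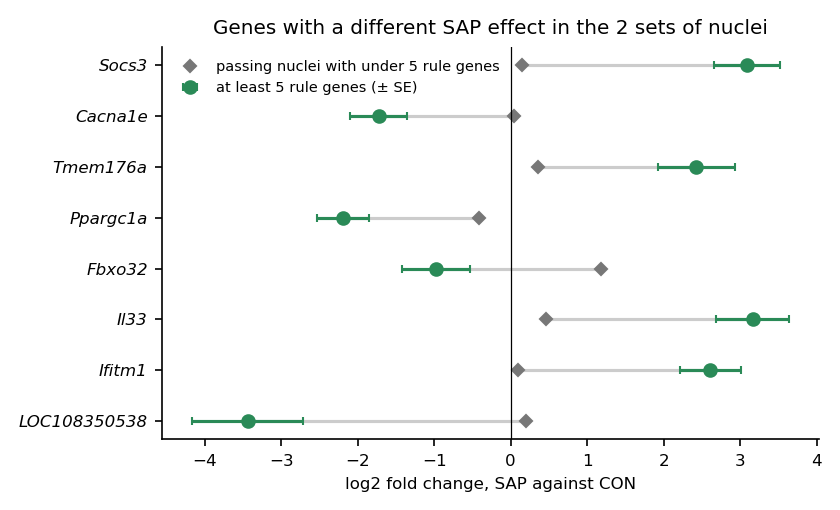
For 8 genes, the log2 fold change of SAP against CON is plotted with its SE in nuclei with at least 5 rule genes, and without an SE in passing nuclei with fewer. Socs3, Il33, Ifitm1 and Tmem176a lie between 2.43 and 3.16 in the former and between 0.099 and 0.46 in the latter, and Fbxo32 has opposite signs.

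The promoters of the called genes were read from RefSeq (build GRCr8) over the 250 bases before the start, because serum response factor and STAT3 head the pathways above. A CArG box, 10 bases that serum response factor can bind, was searched on both strands and stood in 501 of 33469 promoters (1.5%). It stood in 3 of 88 promoters of 78 matched genes called higher (3.41%), those of Egr1, Ldha and Zfp36, in 0 of 23 promoters of genes called lower, and in 0 of those of the 5 rule genes matched. TTCNNNGAA, the core of a STAT site, was in 2566 promoters (7.67%) and in 5 of the 88 (5.68%), those of Ifitm3, LOC120094738, Mrfap1, Rbm3 and Thbs1. It was also in 1 of the 23 promoters of genes called lower (Myom1), in 1 of the 5 of rule genes (Cnn1) and in 2 of 17 matched genes of the JAK-STAT3 list (11.8%), Serpina3n and Socs1. Stretches around 4 of these matches are printed 5′ to 3′ on the gene's strand, with the match in capitals, because these genes are among the calls described above. Zfp36 lies at chr1:92799109-92799165 (minus strand), Ldha at chr1:106508035-106508091 (plus), Ifitm3 at chr1:205541759-205541816 (minus) and Thbs1 at chr3:125510000-125510040 (plus).
Zfp36: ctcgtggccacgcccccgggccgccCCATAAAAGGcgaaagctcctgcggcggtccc
Ldha: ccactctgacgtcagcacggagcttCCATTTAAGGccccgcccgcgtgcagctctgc
Ifitm3: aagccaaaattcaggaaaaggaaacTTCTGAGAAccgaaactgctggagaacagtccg
Thbs1: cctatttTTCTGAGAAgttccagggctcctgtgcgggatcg
The first 2 hold a CArG box and the last 2 the STAT letters. A match is a description of the letters and not of a bound site, and the CArG share of genes called higher rests on 3 promoters.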

How the data were processed

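Counts were deposited as UMIs per gene and barcode, made by the authors with dnbc4tools 2.1.3 and not normalized. The submitters' processing notes also name Seurat 4.3.0 and the build mRatBN7.2. The members, gene lists and sub-clusters were chosen with earlier results of these data known, and the text names, over all rule nuclei, the rule genes, the called genes, the lowest p of each list and the leading genes of each sub-cluster. Other calls with at least 5 rule genes were named after their values were seen. Barcodes were filtered at 1200 UMIs, 500 genes and 5% mitochondrial UMIs, the study's limits. The 40970 nuclei that passed here are more than the study reports, and the reason was not tested. Totals of passing nuclei ran from 5549260 to 28771508 UMIs per library. The tables of CON replicate 2 and SAP replicate 1 list barcodes down to 545 and 502 UMIs and the others down to 1000, and this difference was an alternative covariate. The labels give every library the same batch. Rule nuclei were clustered with scanpy 1.11.5 and leidenalg 0.10.2 (2000 variable genes, 20 components, 20 neighbours, resolution 0.8). UMIs were summed per library and tested with edgeR 4.0.16 under R 4.3.3 (filterByExpr, TMM, robust quasi-likelihood fit, Benjamini-Hochberg over all genes tested), with DESeq2 1.42.0 as an alternative. Differences between sets of nuclei were tested as an interaction with the library kept as a block. Shares were compared by exact permutation. Scripts were tested on simulated data. The Stereo-seq data were not analysed here. Some genes counted in the lists are not reported here by name.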

Additional observations from a re-analysis of the deposited data

Results flagged for a closer look

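The SAP effect in nuclei with at least 5 rule genes differed from that in passing nuclei with under 5 by an interaction test in edgeR for 8 genes, and these tests of a difference are what brought them here. The differences in log2 fold change were 2.60 for Socs3 (adjusted p = 0.0172), 2.45 for Il33, 2.28 for Ifitm1, 1.92 for Tmem176a, -1.98 for Cacna1e, -2.12 for Ppargc1a, -2.15 for Fbxo32 and -4.07 for LOC108350538 (adjusted p = 0.0467 for each of the last 7). In all 8, the CON and SAP values of 3 libraries each entered for both sets of nuclei, and 0 genes passed without CON replicate 1, CON replicate 2 or SAP replicate 2. Ppargc1a and Cacna1e are among the 10 leading genes of sub-cluster 11, which had 13, 10 and 60 nuclei in CON but 1, 0 and 9 in SAP. With at least 5 rule genes, Ppargc1a had only a few UMIs in SAP replicate 1 and in SAP replicate 2. Over all rule nuclei, keeping those with at most 1% mitochondrial UMIs left 7 nuclei in SAP replicate 1. It moved the log2 fold change of Ifitm1 from 2.11 to 0.50, of Il33 from 2.49 to 1.62, of Socs3 from 1.92 to 1.48 and of Ppargc1a from -1.39 to -1.33. The part of the mix of sub-clusters, of the mitochondrial share, or of pericyte, fibroblast or neutrophil RNA, in the differences of the 8 genes was not tested.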

How the results depend on the processing

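The difference in the share of rule nuclei kept its sign under the 11 other definitions and depths tried, from -0.199 to -3.40 points, and ran from -4.10 to 0.0791 points when 1 library was left out. Calls over all rule nuclei numbered 97 with DESeq2, 0 without members holding 2 genes of another list (479 genes tested, and SAP replicate 2 had no such nucleus left), 19 with at least 4 rule genes, 129 with at least 5, 2 with the library class as a covariate, 250 with no filter on low counts, 30 with the second list, 19 after thinning, 171 in the smooth muscle-like nuclei and 0 to 9 without 1 library. Calls with at least 5 rule genes were 250 with DESeq2 (114 shared), 49 with the library class, 396 with no filter and 17 to 218 without 1 library. Smooth muscle-like calls were 530 with no filter, 80 after thinning, 101 with sub-cluster 12 and 49 to 571 without 1 library. Calls for a difference from other nuclei were 417 for the smooth muscle-like nuclei, 13 against fibroblast-marker nuclei, 8 with at least 5 rule genes, 118 with no filter and 0 to 64 without 1 library. The number of 21 lists with a median above that of all genes was 16, with 12 at no more than 1% mitochondrial UMIs and 13 to 18 without 1 library. The cause of these moves was not tested.

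Over all rule nuclei, log2 fold changes turned positive without 1 library for Myh11 (-1.18 without SAP replicate 1, 0.0444 without CON replicate 2, 0.0877 without SAP replicate 2, 0.0556 without SAP replicate 3), Des (-0.912 without SAP replicate 1, 0.0357 without SAP replicate 2), Lmod1 (-0.691 without SAP replicate 1; 0.143, 0.146 and 0.109 without CON 2, SAP 2 or SAP 3) and, without members holding 2 genes of another list and so also without SAP replicate 2, Actg2 (0.317) and Lmod1 (0.194), and negative for Tceal9 (-0.0382 at no more than 1% mitochondrial UMIs). St8sia6 was not called without SAP replicate 1 (-4.47) or SAP replicate 3 (-5.46). The alternatives added after the data were seen are the smooth muscle-like class and the repeats with at least 5 rule genes. With the replicate number as a block there were 2 calls over all rule nuclei, 61 with at least 5 rule genes and 316 in the smooth muscle-like nuclei. Deviations of libraries with the same number correlated at 0.167, 0.0853 and 0.0321 over genes, not above 0.1 for every pair, so the numbers are not taken to pair the rats. SAP replicates 1 and 2, with 27 and 17 nuclei of at least 5 rule genes, limit the depth of that comparison.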

Other observations

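Genes of dividing cells were without calls in the rule nuclei. With at least 5 rule genes, 11 of 15 tested cell cycle genes had a negative log2 fold change, with 0 called and a median log2 fold change of -0.51, beside -1.26 in the other passing nuclei. Cenpf, a kinetochore protein, was 110.1, 89.1 and 60.9 CPM in CON and 0, 10.4 and 54.2 CPM in SAP in the former (log2 fold change -1.19 with an SE of 0.50, edgeR adjusted p = 0.234). The metallothioneins, which bind zinc and copper, were not called with at least 5 rule genes. Mt2A was 26.7, 4.69 and 266 CPM in CON and 1607, 2314 and 536 CPM in SAP (log2 fold change 3.78 with an SE of 1.11, edgeR adjusted p = 0.147). Mt1 was 90.1, 14.1 and 208 CPM in CON and 556, 1345 and 185 CPM in SAP (log2 fold change 2.58 with an SE of 0.89, edgeR adjusted p = 0.199). CON replicate 3 stood nearest to the SAP libraries for both, and Mt1 overlapped between the groups. In the smooth muscle-like nuclei Mt1 was called higher, at 3.56 with an edgeR adjusted p of 0.0167, and Mt2A was not, at 3.63 with an edgeR adjusted p of 0.155. Lcn2, an iron-trapping acute phase protein also made by neutrophils and epithelium, was 1.67, 0 and 44.6 CPM in CON and 742, 1011 and 124 CPM in SAP (log2 fold change 4.98 with an SE of 1.39, edgeR adjusted p = 0.165).

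Ccn2, a matrix signal that TGF-beta and stretch induce, was not called. Its values were 46.7, 84.5 and 33.7 CPM in CON and 0, 0 and 16.0 CPM in SAP, with 2 SAP libraries at 0 (log2 fold change -2.05 with an SE of 0.63, edgeR adjusted p = 0.119). Itgb1 and Itga5, the chains of the fibronectin receptor, had higher values in every SAP library than in any CON library, as did 12.7% of the genes tested. Itgb1 was 447, 338 and 444 CPM in CON and 1221, 1219.5 and 652 CPM in SAP (log2 fold change 1.30 with an SE of 0.36, edgeR adjusted p = 0.0951). Itga5 was 50.0, 28.2 and 101 CPM in CON and 278, 146 and 208 CPM in SAP (log2 fold change 1.68 with an SE of 0.40, edgeR adjusted p = 0.0526). Neither was called.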
